A study of Homo sapiens with 4 samples.

Results

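Genes of the extracellular matrix and the integrins that bind it were followed over the 4 arrays of the series. They comprise 39 genes, 27 for matrix proteins (fibronectin, fibrillins, collagens, laminins, matricellular proteins and basement membrane linkers) and 12 for integrin subunits. Each gene was read from its brightest probe set that carries 1 gene symbol, the one whose log2 signal, averaged over the 4 arrays, was highest. Such a probe set was present for 37 of the 39, out of 19775 genes with one on the array. LAMA3 was not analysed here, and the annotated probe sets of ITGB6 carry another symbol as well and gave no value.

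All samples came from HCCLM3, a human hepatocellular carcinoma cell line, sorted magnetically by the epithelial adhesion molecule EpCAM and then treated for 4 days, with 1 array for each group. The EpCAM-positive fraction was given antagomir-429 at 40 µM, a cholesterol-conjugated antisense RNA added to the medium, or a negative-control (NC) antagomir at 40 µM. The EpCAM-negative fraction was given miR-429 as a mimic at 100 nM, synthetic duplex RNA delivered with a transfection reagent, or an NC mimic at 100 nM. The series set out to find targets of miR-429. Sort and delivery differ together, so a difference between the EpCAM-positive and the EpCAM-negative arrays cannot be told apart from one between antagomir and mimic delivery. No group had a second array, so no p-value is given for any difference, and none has a replicate check.

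Cells secrete collagens, laminins and glycoproteins that assemble outside them, laminins and type IV collagen into the basement membrane under epithelia and fibrillar collagens into the interstitial matrix. Integrins are paired alpha and beta chains in the plasma membrane that bind these proteins and tie them to the actin cytoskeleton. Most alpha chains in this set pair with ITGB1, while ITGAV also pairs with ITGB3, ITGB5, ITGB6 and ITGB8, and ITGA6 also pairs with ITGB4. In liver cancer, matrix and integrin genes are known mainly from studies of invasion and of the fibrotic liver around the tumour.

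The microRNA supplied or blocked in these cells reads its targets through its seed, bases 2 to 8, shown in capitals below. RefSeq (GRCh38.p14) holds 3 mature human microRNAs with that seed, printed 5′ to 3′ so that the shared part can be seen.
hsa-miR-429: uAAUACUGucugguaaaaccgu
hsa-miR-200b-3p: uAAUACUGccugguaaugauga
hsa-miR-200c-3p: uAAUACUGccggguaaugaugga
Direct targets of a microRNA are known to lose messenger RNA when it is supplied and to gain it when it is blocked. Of the members 0 were 2-fold or more lower after the mimic while also 2-fold or more higher after the antagomir, against 0.387% of all expressed genes. COL11A2 came closest, with log2 ratios of -1.04 after the mimic and 0.9995 after the antagomir, and its probe sets disagree.

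Deposited values were log2 signals of the MAS5 algorithm, and the 4 arrays shared a trimmed mean signal of 500.1. A gene counted as expressed when its mean log2 signal was at or above the median of all 54613 non-control probe sets, a signal of 52.9, called the floor. This left 13180 genes, of which 34 are members, 23 matrix and 11 integrin genes. In the dimmest of 4 equal signal bins the robust SD of the log2 ratio over genes was 0.82 for the mimic pair, 0.79 for the antagomir pair and 0.82 between the NC arrays, and in the brightest bin it was 0.36, 0.15 and 0.24. The transcript of the sorted molecule itself, EPCAM, had signals of 913 with antagomir-429, 1235 with the NC antagomir, 3838 under the miR-429 mimic and 1106 under the NC mimic, so the NC arrays of the sorts differed by a log2 ratio of 0.16. Of 10 line markers 6 were expressed, and KRT8, KRT18 and VIM were bright. ALB, which marks hepatocytes, was under the floor on each array, while AFP and APOA1 of the same list were expressed. Of 10 fibroblast, stellate and mural cell markers 6 were expressed, and all 10 together had a summed signal of 1322 with antagomir-429, 1438 with the NC antagomir, 1301 under the miR-429 mimic and 1569 under the NC mimic. In that list LUM, FAP, PDGFRA and LRAT were under the floor by their mean, while DCN, PDGFRB and DES were among those expressed. DCN was above the floor on each array, at 167 with antagomir-429, 256 with the NC antagomir, 222 under the miR-429 mimic and 384 under the NC mimic. RGS5 was higher with the mimic by at least 1.51-fold against the floor. Of 6 endothelial markers PECAM1 and VWF were expressed, and the summed signals of all 6 were 380, 288, 507 and 309 in that order. VWF was higher by at least 2.39-fold with the mimic and by at least 1.93-fold with antagomir-429, and CDH5 and KDR were under the floor by their mean. Of 6 leukocyte markers CD3E and CSF1R were expressed, dimly, and the 4 with a probe set summed to 153, 215, 264 and 208. CD3E had a log2 ratio of 1.32 with the mimic, CSF1R was lower with antagomir-429 by at least 1.67-fold, and PTPRC was under the floor on each array. The part of such cells in the results was not tested.

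**Figure D1:**
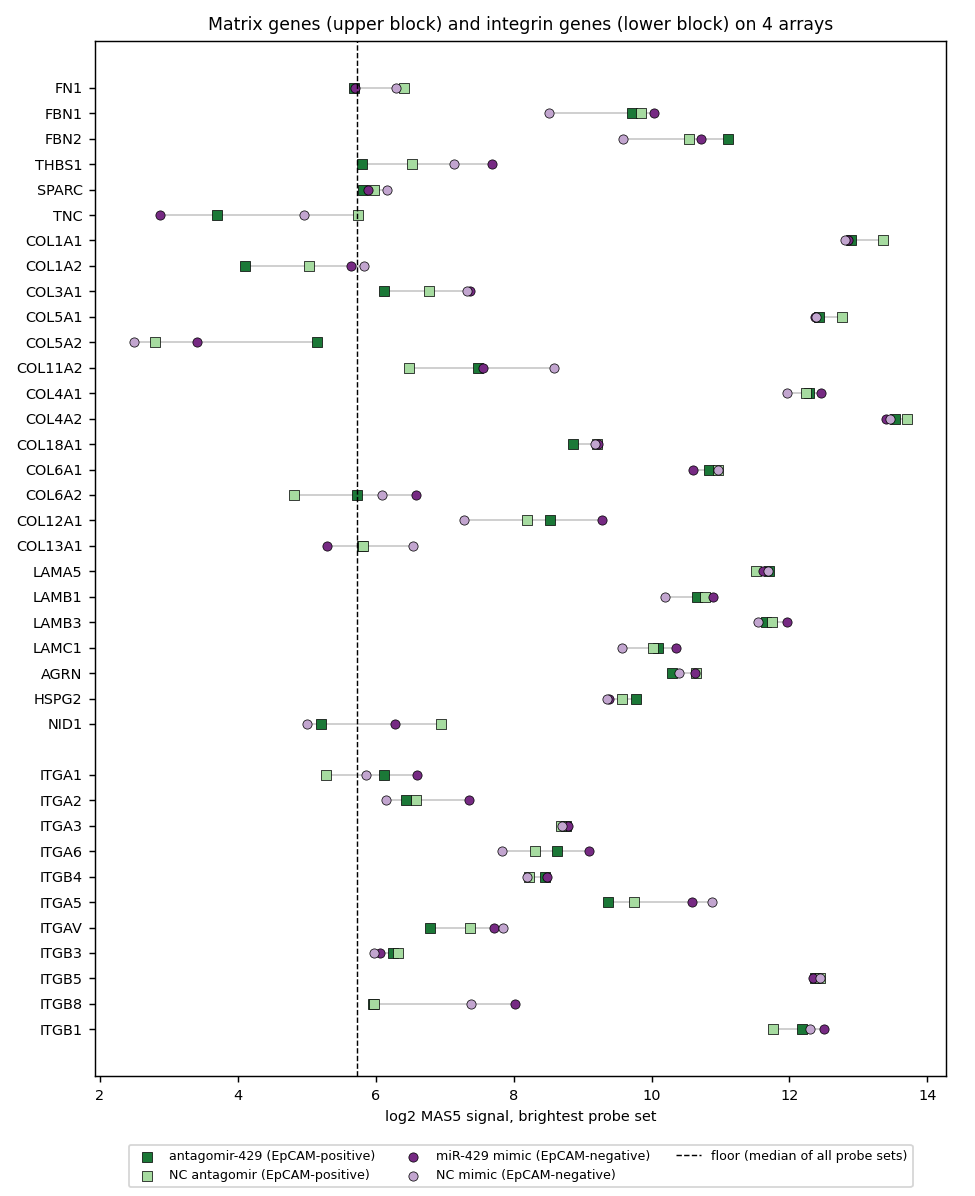
Log2 MAS5 signal (x axis) of the brightest probe set of 37 members (rows), with 26 matrix genes above and 11 integrin genes below, 1 point for each array. The dashed line is the floor, and COL1A2, COL5A2 and TNC lie under it by their mean over the 4 arrays.

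The members under the floor by their mean were COL1A2, COL5A2 and TNC. COL1A2, the second chain of type I collagen, had signals of 17 with antagomir-429, 33 with the NC antagomir, 49.96 under the miR-429 mimic and 57 under the NC mimic. COL5A2, a chain of the fibril-nucleating type V collagen, had 35, 7.0, 10.6 and 5.6 in the same order of arrays. TNC, the matricellular glycoprotein tenascin C, had 13.0, 53, 7.3 and 31. Each of these genes was therefore at or above the floor on 1 array at most, and its ratios carry no more than that.

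Fibronectin, the adhesive glycoprotein bound by ITGA5 with ITGB1, was barely above the floor. FN1 had signals of 52 with antagomir-429, 85 with the NC antagomir, 52 under the miR-429 mimic and 79 under the NC mimic, and 5 of its 7 probe sets were under the floor by their mean. SPARC, a collagen-binding matricellular protein, lay close to it as well, at 56, 63, 59 and 72. By the brightest probe set, both genes differed in each comparison by less than genes as dim as they are scattered (0.79 to 0.82). FN1's other probe set at or above the floor read differently, with a log2 ratio of -1.23 in the mimic pair. Against the floor it was higher with antagomir-429 by at least 1.04-fold. Between the NC arrays it was lower in EpCAM-positive cells by at least 2.93-fold.

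With the miR-429 mimic in EpCAM-negative cells, a subset of matrix and integrin genes was higher than with the NC mimic, among them the collagen COL12A1, both fibrillins and the integrin chains ITGA6 and ITGA2. Among the 34 expressed members, 6 reached 2-fold higher (17.6%), against 5.25% of all expressed genes, and 2 were at least 2-fold lower, against 3.76%. With the 31 members whose signal reached the floor on each array of the pair, 5 were higher, against 3.17% of all genes so restricted, and 1 lower, against 1.76%. The median log2 ratio was 0.05 over the 23 matrix members and 0.21 over the 11 integrin members, beside -0.002 over all expressed genes. Of the 34 members 26 lay within 2-fold. With each array centred on its own median the matrix median was -0.02, beside -0.07 over all expressed genes. Because these are whole samples, fewer cells of a type and less RNA per cell cannot be told apart here.

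COL12A1 encodes a collagen that decorates the surface of fibrils. Its signals were 370.0 with antagomir-429, 293 with the NC antagomir, 622 under the miR-429 mimic and 156 under the NC mimic. The miR-429 mimic array was the highest of the 4 and the NC mimic array the lowest. Within the mimic pair the log2 ratio was 1.999 where genes of like signal scattered by 0.53, and the gene's next probe set gave 1.56.

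FBN1 and FBN2 encode the fibrillins, which form the microfibrils of connective tissue. FBN1 had signals of 838 with antagomir-429, 917 with the NC antagomir, 1047 under the miR-429 mimic and 365 under the NC mimic. Only the NC mimic array stood apart, and the log2 ratio of the mimic pair was 1.52 (2.87-fold). FBN2 had 2201 with antagomir-429, 1490.1 with the NC antagomir, 1679 under the miR-429 mimic and 767 under the NC mimic. Here too the NC mimic array was the lowest, with a log2 ratio of 1.13 (2.19-fold) within the mimic pair, while antagomir-429 gave the highest signal. The other probe sets of FBN2 at or above the floor gave 0.69 and -0.01 in the mimic pair. Scatter for genes as bright as either fibrillin was 0.46.

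ITGA6, the laminin-binding chain that pairs with ITGB1 or ITGB4, had signals of 397 with antagomir-429, 316 with the NC antagomir, 548 under the miR-429 mimic and 229 under the NC mimic. ITGA2, a collagen-binding chain, had 87, 96, 164 and 71 in that order. For both genes the miR-429 mimic array was the highest of the 4 and the NC mimic array the lowest. The log2 ratios within the mimic pair were 1.26 for ITGA6 (scatter 0.53) and 1.22 for ITGA2 (scatter 0.82), and the second probe set of ITGA2 was higher by at least 2.26-fold. ITGA1, the other collagen-binding chain, had signals of 70, 39, 97 and 58, a log2 ratio of 0.74 within the mimic pair.

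Of 4 measured laminin chains 3 had a higher signal with the miR-429 mimic than with the NC mimic, none by 2-fold. LAMC1, the common gamma chain, had signals of 1092 with antagomir-429, 1036 with the NC antagomir, 1311 under the miR-429 mimic and 758 under the NC mimic, a log2 ratio of 0.79. LAMB1, a beta chain that joins it, had 1610, 1745, 1901 and 1177, a ratio of 0.69. Their second probe sets gave 0.69 and 0.58. LAMB3, the beta chain of the epidermal type of laminin, had 3251, 3424, 4013 and 2987, a ratio of 0.43. LAMA5, an alpha chain, was not higher, with 3330.0, 2932, 3134 and 3301 and a ratio of -0.07.

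Promoter sequences of 3 genes higher with the mimic are shown so that their letters can be compared. They are RefSeq windows (GRCh38.p14) from 250 bases before to 50 after the gene start, 5′ to 3′ on the gene's strand. Capitals mark the motifs searched on both strands: the GC box GGGCGG, the CCAAT box, the TATA box with the letters TATAAA, the letters CACCTG (bound by ZEB and SNAI repressors), the letters CACGTG (bound by USF and MYC factors) and the AP-1 motif TGANTCA.
COL12A1, chr6:75206004-75206303, minus strand: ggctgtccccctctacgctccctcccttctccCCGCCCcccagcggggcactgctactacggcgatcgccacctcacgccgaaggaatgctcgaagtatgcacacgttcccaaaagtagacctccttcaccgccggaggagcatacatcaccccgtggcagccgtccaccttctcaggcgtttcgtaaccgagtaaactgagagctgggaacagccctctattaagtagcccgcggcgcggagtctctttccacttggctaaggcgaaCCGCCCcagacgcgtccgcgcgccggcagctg
FBN2, chr5:128538196-128538495, minus strand: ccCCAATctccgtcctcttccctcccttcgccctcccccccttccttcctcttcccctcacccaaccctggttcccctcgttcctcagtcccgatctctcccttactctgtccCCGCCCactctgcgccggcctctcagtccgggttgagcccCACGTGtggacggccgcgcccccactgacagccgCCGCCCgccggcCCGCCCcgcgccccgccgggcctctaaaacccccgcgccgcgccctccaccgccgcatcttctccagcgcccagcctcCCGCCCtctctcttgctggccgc
ITGA6, chr2:172427086-172427385, plus strand: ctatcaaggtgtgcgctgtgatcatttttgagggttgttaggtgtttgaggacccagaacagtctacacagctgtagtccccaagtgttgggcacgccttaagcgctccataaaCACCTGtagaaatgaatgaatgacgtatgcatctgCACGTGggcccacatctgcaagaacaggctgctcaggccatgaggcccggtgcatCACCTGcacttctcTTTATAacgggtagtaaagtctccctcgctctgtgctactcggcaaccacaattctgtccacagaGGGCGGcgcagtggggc
ITGA6 held 2 copies of CACCTG, 1 of CACGTG, 1 of TATAAA and 1 GC box in this window. The ITGA6 window was picked because it holds CACCTG, so that match was fixed by the choice. FBN2 held 1 CACGTG, 1 CCAAT box and 4 GC boxes, and COL12A1 held 2 GC boxes and none of the other motifs. In all, 30 members had 42 such windows between them. GGGCGG occurred in 76.2% of these, against 45.0% of 35116 windows of all genes, and their median GC content was 69.7% against 58.7%. CACCTG occurred in 14.3% of the members' windows and in 20.6% of all windows, CCAAT in 26.2% and 34.6%, TATAAA in 11.9% and 11.5%, CACGTG in 4.76% and 7.26%, and TGANTCA in 7.14% and 7.71%. A match describes the letters and is not a measured site.

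Other members past 2-fold with the mimic were dim or read differently by their probe sets. NID1, the linker of laminin and type IV collagen, had signals of 37 with antagomir-429, 124 with the NC antagomir, 78 under the miR-429 mimic and 32 under the NC mimic. Against the floor it was higher with the mimic by at least 1.47-fold and lower with antagomir-429 by at least 2.34-fold. It was the only member past 2-fold in opposite directions in the 2 treatments, where 0.721% of all expressed genes were. COL13A1, a transmembrane collagen, had 56 with antagomir-429, 56 with the NC antagomir, 39 under the miR-429 mimic and 93 under the NC mimic, at least 1.76-fold lower within the mimic pair. Its next probe set gave the opposite sign, 0.85. COL11A2, a chain of a cartilage-type fibrillar collagen, had 179.5, 89.8, 188 and 385 in the same order, with the NC mimic array the highest. Its log2 ratio within the mimic pair was -1.04, whereas its other probe set, just under the floor by its mean, was higher by at least 3.40-fold.

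Apart from NID1, the basement membrane genes lay within 2-fold between the mimic and its control. COL4A1 and COL4A2 encode the chains of the type IV collagen network and lie head to head. Their starts are 127 bases apart and their promoter windows share 226 bases. The window of COL4A2, with motifs in capitals as above, is shown because most of it is also in the window of COL4A1.
COL4A2, chr13:110307034-110307333, plus strand: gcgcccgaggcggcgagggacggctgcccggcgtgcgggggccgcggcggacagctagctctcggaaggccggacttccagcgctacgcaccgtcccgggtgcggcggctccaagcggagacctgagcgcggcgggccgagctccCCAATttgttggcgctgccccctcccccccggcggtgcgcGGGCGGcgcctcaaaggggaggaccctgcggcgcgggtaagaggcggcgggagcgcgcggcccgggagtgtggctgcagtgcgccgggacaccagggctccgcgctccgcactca
COL4A1 had signals of 5002 with antagomir-429, 4819 with the NC antagomir, 5607 under the miR-429 mimic and 4002 under the NC mimic, a log2 ratio of 0.49 for the mimic. COL4A2 had 11826, 13412, 10782 and 11222, a ratio of -0.06. Their second probe sets gave 0.05 and 0.08, so the ratio of COL4A1 differed between its probe sets. COL18A1, the basement membrane collagen that releases endostatin, had a ratio of 0.04, with signals of 463, 589, 597 and 579.8 in that order. The heparan sulfate proteoglycans HSPG2 and AGRN had ratios of 0.02 and 0.23.

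Fibrillar and filament collagens were flat with the mimic where they were bright. COL1A1, a chain of type I collagen, had signals of 7633 with antagomir-429, 10500 with the NC antagomir, 7404 under the miR-429 mimic and 7162 under the NC mimic. The NC antagomir array was the highest. COL5A1 had 5504, 6950, 5305 and 5324 in that order, and the log2 ratios of the mimic pair were 0.05 and -0.01. COL3A1, the type III collagen chain, had a ratio of 0.03 at signals of 164 and 161. COL6A1 and COL6A2, chains of the beaded-filament type VI collagen, had ratios of -0.36 and 0.49, with COL6A2 close to the floor. THBS1, a matricellular protein that binds cells and latent TGF-beta, had 205 with the mimic and 140 with the NC mimic, a ratio of 0.55 by its brightest probe set. Its next probe set was past 2-fold higher with the mimic, at 150.2 against 53, a ratio of 1.503, with the NC mimic signal barely above the floor. The other probe sets of THBS1, all under the floor by their mean, gave ratios between -1.52 and 2.29.

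Integrin beta chains and the ITGA3, ITGA5 and ITGAV chains also lay within 2-fold in the mimic pair. ITGB1, the common partner, had signals of 4633 with antagomir-429, 3481 with the NC antagomir, 5817 under the miR-429 mimic and 5029 under the NC mimic, a log2 ratio of 0.21. ITGB5 had 5282, 5548, 5175 and 5577, a ratio of -0.11. ITGA3, a laminin receptor chain, spanned 1.07-fold over all 4 arrays. ITGB4, the hemidesmosomal partner of ITGA6, had a ratio of 0.30, ITGB3 0.10, ITGB8 0.64, ITGA5 -0.29 and ITGAV -0.13. The next probe set of ITGB3, also dim, had the opposite sign and was lower with the mimic by at least 1.84-fold.

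**Figure D2:**
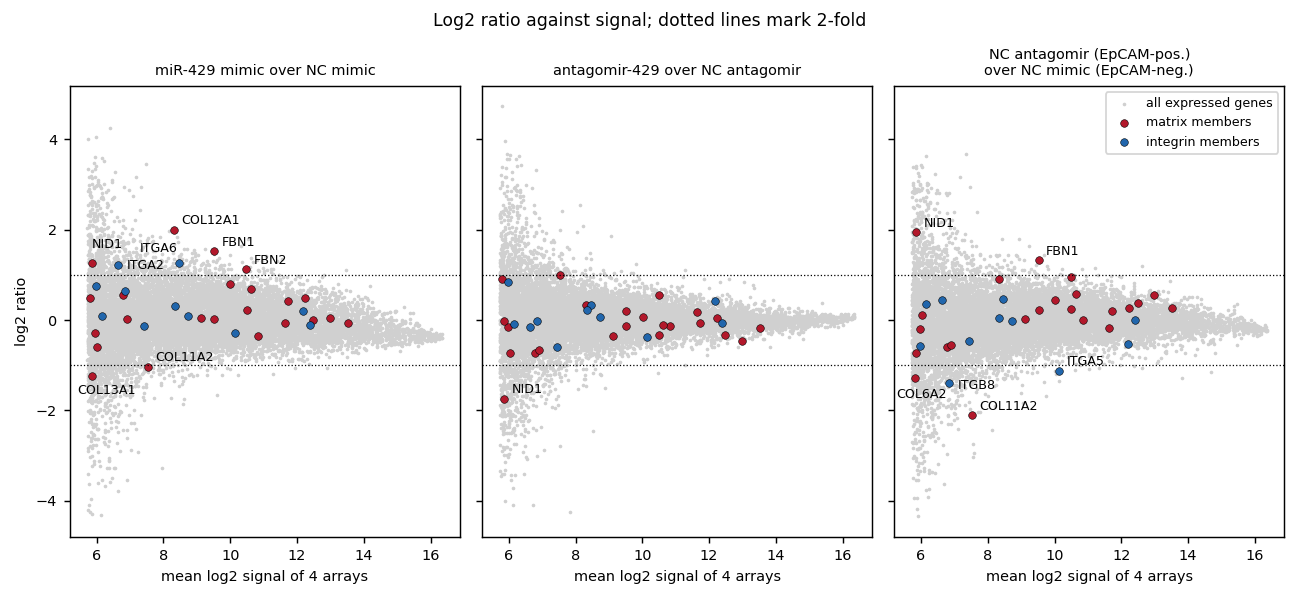
Log2 ratio (y axis) against mean log2 signal of the 4 arrays (x axis) for 13180 expressed genes (grey), 23 matrix members (red) and 11 integrin members (blue) in the 3 comparisons. In the mimic panel COL12A1 lies at 1.999 and FBN1 at 1.52, and in the antagomir panel NID1 at -1.74 is the only member past 2-fold.

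Probe sets of 1 gene did not always give 1 answer. The 37 members had 122 single-symbol probe sets, of which 66 were at or above the floor. Among 21 members with at least 2 of those, the signs in the mimic pair were the same for 12, and the median range between a gene's probe sets was 0.40 log2 units, or 0.28 with signals under the floor raised to it. Both probe sets of COL12A1, ITGA2, LAMB1 and LAMC1 at or above the floor were on the same side with like values. The next probe set of FBN1 had signals of 229.6 with antagomir-429, 225 with the NC antagomir, 442 under the miR-429 mimic and 26 under the NC mimic. The last of these is under the floor, so that it was higher with the mimic by at least 8.36-fold. The second probe set of ITGA6 had a signal of 9.7 on the NC mimic array, which leaves it higher by at least 1.97-fold. COL1A1's other probe sets at or above the floor gave ratios between -0.51 and -0.27.

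**Figure D3:**
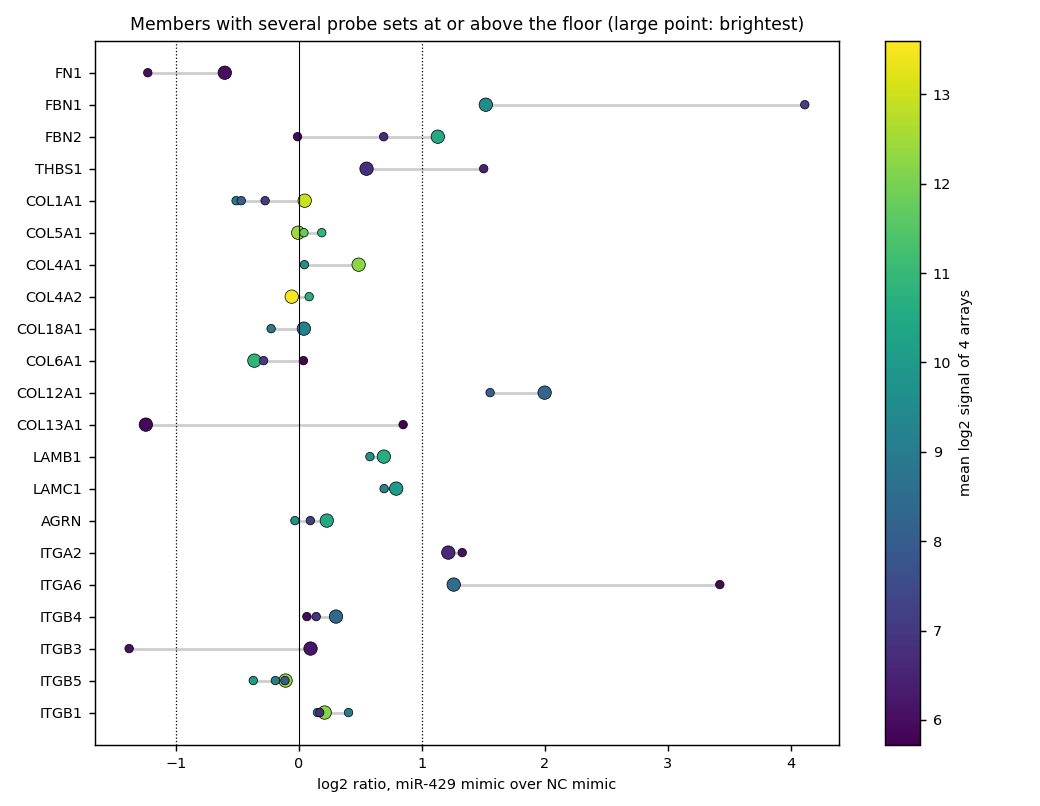
Log2 ratio of the mimic pair, miR-429 over NC, (x axis) for each probe set at or above the floor, in 21 members with at least 2 of them (rows). The large point is the brightest probe set and colour gives the mean log2 signal. COL12A1, ITGA2, LAMB1 and LAMC1 have both points close together above 0, while the points of FBN1 are at 1.52 and 4.11 as measured, the second with its NC mimic signal below the floor.

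Matrix genes are long, and the mimic pair differed with gene length. The median span of the 34 expressed members was 79.2 kb, against 26.9 kb over 13170 expressed genes with a span in RefSeq, and 16 members fell in the longest of 5 equal span bins. The median log2 ratio of all expressed genes in that bin was 0.22 with the mimic, 0.05 with the antagomir and 0.06 between the NC arrays, and in the shortest bin it was -0.19, -0.02 and -0.10. Above the median of their own bin, COL12A1 stood at 1.78, FBN1 at 1.30, ITGA6 at 1.15, ITGA2 at 0.997 and FBN2 at 0.91. COL4A2 and COL5A1, at 206 and 203 kb, lay below it by 0.28 and 0.22. The part of gene length in the mimic differences was not tested further.

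**Figure D4:**
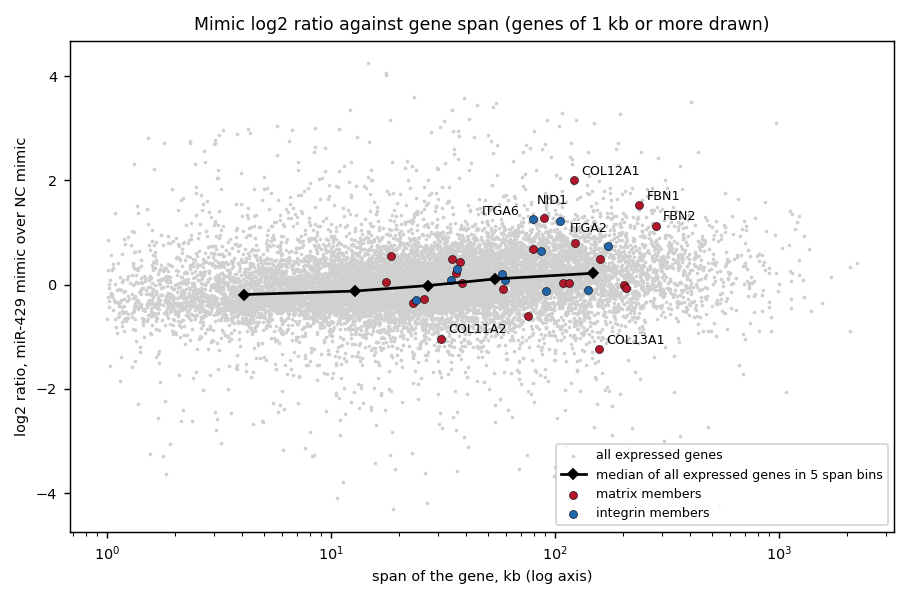
Log2 ratio of the mimic pair, miR-429 over NC, (y axis) against the span of the gene in kb (x axis, log scale) for expressed genes of 1 kb or more (grey), matrix members (red) and integrin members (blue). The black line joins the medians of 5 span bins, which go from -0.19 to 0.22, and COL12A1 lies at 1.999 for 122 kb.

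With antagomir-429 in EpCAM-positive cells, matrix and integrin genes differed little from the NC antagomir. Among the 34, 0 reached 2-fold higher, against 3.72% of all expressed genes, and 1 was at least 2-fold lower (NID1), against 3.53%. With both arrays of the pair at or above the floor, 0 of 30 members were higher, against 1.39% of all genes so restricted, and 0 lower, against 1.24%. The median log2 ratio was -0.13 over matrix members, of which 15 of 23 were below 0, and -0.02 over integrin members, beside 0.01 over all expressed genes. None of the genes higher with the mimic was 2-fold lower with the antagomir apart from NID1. The ratios were 0.34 for COL12A1, -0.13 for FBN1, 0.56 for FBN2, 0.33 for ITGA6 and -0.15 for ITGA2. Genes as bright as FBN2 scattered by 0.26 in the antagomir pair, but its probe sets disagree. One other had -0.45 with the antagomir, and the dimmest was higher with it by at least 1.72-fold.

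The bright collagens COL1A1 and COL5A1 were lower with antagomir-429 by more than genes of like signal scattered. COL1A1 had a log2 ratio of -0.46 and COL5A1 -0.34, where the scatter was 0.15. COL5A1's other probe sets gave -0.16 and -0.06, and those of COL1A1 at or above the floor between -1.40 and -0.16. COL18A1 had -0.35 (second probe set -0.22) and AGRN -0.34 (one other 0.08, another lower by at least 4.34-fold), where the scatter was 0.26. ITGB1 was on the other side, at 0.41, but its other probe sets at or above the floor gave -0.04, 0.15 and -0.11. ITGB5 had -0.07 by its brightest probe set, whereas its next gave -1.01 and the others -0.0005 and 0.41. COL11A2, with a signal of 179.5 given antagomir-429 against 89.8 given the NC antagomir, had a ratio of 0.9995, just short of 2-fold.

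In the comparison of the NC arrays, which sets EpCAM-positive cells given the NC antagomir against EpCAM-negative cells given the NC mimic, the integrin chains ITGA5 and ITGB8 and the collagens COL11A2 and COL6A2 were at least 2-fold lower in EpCAM-positive cells as measured. These were 4 of 34 members, against 4.7% of all expressed genes, and 2 were 2-fold or more higher (FBN1 and NID1), against 3.62%. COL6A2 lay under the floor on the NC antagomir array and NID1 on the NC mimic array, which leaves COL6A2 lower by at least 1.29-fold and NID1 higher by at least 2.34-fold. With both NC arrays at or above the floor, 1 of 31 members was higher, against 1.63% of all genes so restricted, and 3 lower, against 2.37%. The median log2 ratio was 0.22 over matrix members and -0.01 over integrin members, beside -0.02 over all expressed genes. This comparison shares an array with each of the other comparisons, and its values depend on theirs. FBN1, with a ratio of 1.33, and FBN2, with 0.96, differed here through the same low NC mimic array as in the mimic pair.

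ITGA5, which with ITGB1 forms the main fibronectin receptor, had signals of 664 with antagomir-429, 859 with the NC antagomir, 1535 under the miR-429 mimic and 1874 under the NC mimic. Both EpCAM-positive arrays were below both EpCAM-negative arrays, and the log2 ratio of the NC arrays was -1.13 (scatter 0.35). Only 1 probe set measures this gene here. Its promoter window, with motifs in capitals as above, holds 1 AP-1 letter match and 1 GC box.
ITGA5, chr12:54419217-54419516, minus strand: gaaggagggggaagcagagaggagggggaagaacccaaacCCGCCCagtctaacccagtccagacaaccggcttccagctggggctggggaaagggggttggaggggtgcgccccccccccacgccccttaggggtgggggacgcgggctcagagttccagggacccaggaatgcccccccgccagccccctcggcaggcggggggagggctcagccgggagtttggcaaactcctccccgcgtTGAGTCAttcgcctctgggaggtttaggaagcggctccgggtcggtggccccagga

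ITGB8, a partner of ITGAV that binds latent TGF-beta, had signals of 62 with antagomir-429, 63 with the NC antagomir, 260.5 under the miR-429 mimic and 167 under the NC mimic. EpCAM-positive arrays were only just above the floor and EpCAM-negative arrays well above it, with a log2 ratio of -1.40 between the NC arrays (scatter 0.82). The other 4 probe sets of ITGB8 were under the floor. ITGAV itself had 110.1, 165.5, 209.9 and 229.5 in that order of arrays, a ratio of -0.47. ITGB1 had a ratio of -0.53, and its other probe sets at or above the floor gave -0.45, -0.50 and 0.13.

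Over all 4 arrays, 8 of 34 members (23.5%) had both EpCAM-positive arrays below both EpCAM-negative arrays, against 18.9% of all expressed genes. In 5 members (14.7%) the means over the arrays were also at least 2-fold apart, against 2.15%. These were THBS1, COL11A2, COL6A2, ITGA5 and ITGB8, and the rule was chosen after the values were seen. In the opposite direction 5 members (COL1A1, COL5A1, COL4A2, HSPG2 and ITGB3) had both EpCAM-positive arrays higher, against 17.2% of all expressed genes, and 0 of them by 2-fold in the means, against 1.02%. THBS1 had signals of 56 and 92 in EpCAM-positive cells, given antagomir-429 or its control, and 205 and 140.1 in EpCAM-negative cells, given the mimic or its control. Its next probe set, at 95, 85, 150.2 and 53 in that order, did not separate the sorts. COL6A2 had 52.8 and 28, both under the floor, against 96 and 68. Its other probe set, under the floor by its mean, had the opposite order, at 21.5 and 86 against 7.5 and 15.1. The other probe set of COL11A2, also under the floor by its mean, had 56 and 81 against 180 and 8.6 and did not separate the sorts.

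The array given the NC mimic was the lowest of the 4 for 14 of 34 members (41.2%), against 27.8% of all expressed genes. The miR-429 mimic array was the highest for 17 (50%), against 28.6%. Since the NC mimic array decides the ratios of FBN1 and FBN2, the mimic array was also set against the NC antagomir array, which differs from it in sort and delivery. There 6 members were at least 2-fold higher as measured, against 5.36% of all expressed genes. Among them, COL6A2 and ITGA1 were under the floor on the NC antagomir array, at 28 and 39. Only COL12A1 (log2 ratio 1.09) was also among the 6 of the mimic pair. FBN1 had 0.19 and FBN2 0.17, ITGA6 had 0.79 and ITGA2 0.77, and NID1 changed sign (-0.67).

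**Figure D5:**
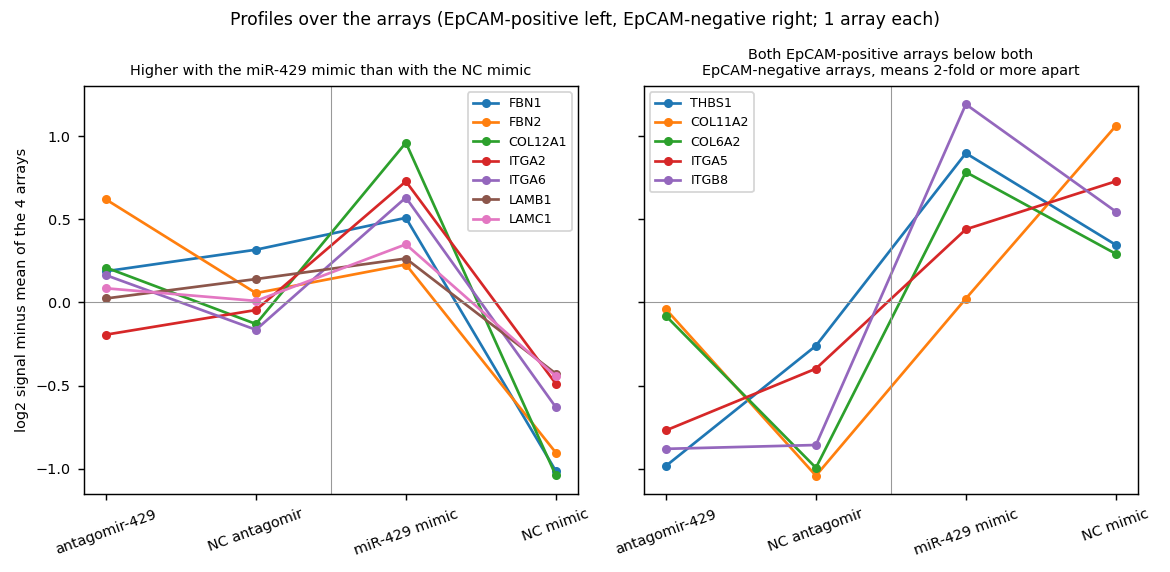
Log2 signal minus the mean of the 4 arrays (y axis) for each array (x axis, EpCAM-positive at left), 1 line for each gene. The left panel shows 7 genes higher with the miR-429 mimic than with the NC mimic, all lowest on the NC mimic array, and the right panel shows 5 genes lower on both EpCAM-positive arrays than on both EpCAM-negative arrays.

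Other genes of the same pathways were read in the same way. Of 57 other matrix genes 31 were expressed, with a median log2 ratio of 0.13 with the mimic, -0.11 with the antagomir and 0.18 between the NC arrays. In the mimic pair 1 was 2-fold higher and 0 were lower, against 5.25% and 3.76% of all expressed genes. That gene, COL16A1, a fibril-associated collagen, had signals of 249 with antagomir-429, 122 with the NC antagomir, 275 with the miR-429 mimic and, under the floor, 41 with the NC mimic, at least 5.21-fold higher with the mimic. With the antagomir 3 were higher and 2 lower, against 3.72% and 3.53%. Among them were LTBP2, a latent TGF-beta binding protein, at least 2.33-fold higher, and the collagen COL27A1, at least 2.77-fold lower. All of these were under the floor on 1 array. For COL16A1, also 2-fold higher with the antagomir (log2 ratio 1.03), that was the NC mimic array, outside the antagomir pair.

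Of 14 other integrin subunits 8 were expressed, ITGAE brightly and the rest dimly, and ITGAE was within 2-fold throughout. In the mimic pair 1 was at least 2-fold higher as measured and 1 lower, against 5.25% and 3.76% of all expressed genes. With the antagomir 3 were higher and 0 lower, against 3.72% and 3.53%. Between the NC arrays 1 was higher and 3 lower, against 3.62% and 4.7%. The 3 higher with the antagomir, ITGA11, ITGA9 and ITGAL, were each under the floor on the NC antagomir array. ITGAM had signals of 104.9 with antagomir-429, 113 with the NC antagomir, 104.3 with the miR-429 mimic and, under the floor, 24 with the NC mimic. ITGA11, a collagen receptor chain, had 146, 29, 87 and 88 in that order, with the NC antagomir array alone under the floor.

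The enzymes and chaperones of collagen synthesis lay within 2-fold in both treatments, where 3.53% to 5.25% of all expressed genes were past it in each direction. Of 17 expressed of 21, the largest ratios were 0.82 for the crosslinking enzyme LOX and 0.66 for the lysyl hydroxylase PLOD2 with the mimic, and -0.64 for PLOD2 with the antagomir. Between the NC arrays P4HA1, a prolyl hydroxylase subunit, was the only one past 2-fold, lower in EpCAM-positive cells, as were 4.7% of all expressed genes. It had signals of 2064 with antagomir-429, 1665 with the NC antagomir, 3549.7 under the miR-429 mimic and 3484 under the NC mimic, and its log2 ratio between the NC arrays was -1.07. Both EpCAM-positive arrays were lower than both EpCAM-negative arrays.

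Adhesion plaque proteins, which link integrins to actin, had medians of 0.02, 0.02 and 0.12 over 23 expressed of 25 with the mimic, with the antagomir and between the NC arrays. Only the kinase SRC was past 2-fold, lower with the mimic, as were 3.76% of all expressed genes. Against the floor it was lower after the mimic by at least 3.92-fold. Its signals were 307 with antagomir-429, 171.5 with the NC antagomir, 39 under the miR-429 mimic and 208 under the NC mimic. Non-integrin matrix receptors had medians of -0.25, -0.19 and -0.11 over 13 expressed of 17. Of them 0 were past 2-fold in the 3 comparisons, against 3.53% to 5.25% of all expressed genes in each direction. Their largest ratios were -0.50 for the glypican GPC1 and 0.45 for the syndecan SDC4 with the mimic, and -0.65 for SDC1 with the antagomir.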

How the data were processed

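Total RNA of 4 samples was measured on Affymetrix Human U133 Plus 2.0 arrays, 1 for each group. The deposited values are log2 signals that the authors made with MAS5, per the submitters' processing notes. The sources used here do not give the version, the target level or detection calls. With the log2 undone, each array had the same trimmed mean, so no further scaling was applied. No column of other samples was present, and depth does not apply to arrays, whose number limits the precision.

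Platform annotation, which can be old, gave 1 symbol for 41097 of 54675 probe sets, several for 1801 and none for 11777. Entrez identifiers of 41043 matched RefSeq (GRCh38.p14), used for names, spans and promoter windows. The files name no genome build.

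Log2 ratios between single arrays were computed in Python 3.11.15 with pandas 2.3.3 and numpy 2.4.6, counted at 2-fold and given against the floor ("at least") where 1 array lay under it. The counting was tested on simulated data. Members past 2-fold in any comparison were described array by array. From each other list up to 4 genes past 2-fold, or the 2 largest, could be named. Members and lists were chosen with earlier results of these data known. Alternatives tried were quantile normalization, centring on each array's median, 13.2 signal units added before the log, a stricter filter at the 75th percentile, no filter, the median over probe sets, and probe sets without _x_ or _s_ in their identifier. The NC antagomir array as control of the mimic, and probe set ranges with signals raised to the floor, were added after the data were seen.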

Additional observations from a re-analysis of the deposited data

How the results depend on the processing

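Of the 6 members at least 2-fold higher with the mimic, all 6 were so with median centring, quantile normalization, the offset and no filter. With the stricter filter 4 were left (not NID1 or ITGA2), with the median over probe sets 5 (not FBN2, and COL11A2 was added), without _x_ and _s_ probe sets 4 (not FBN1 or NID1) and with the NC antagomir array as control 1 (COL12A1, and 5 others were added). With the stricter filter, which keeps 21 members, the mimic median was 0.23 for matrix members and the antagomir median 0.15 for integrin members. Members past 2-fold then numbered 0 lower with the mimic and 0 lower with the antagomir. Between the NC arrays 1 was higher and 1 lower, and 0 were past it in opposite directions in the 2 treatments. This filter keeps 8130 genes. Of those, 146 were higher and 36 lower with the mimic, and 15 lower with the antagomir. Between the NC arrays 60 of them were higher and 60 lower. With the median over probe sets the matrix medians were 0.22 with the mimic and 0.38 between the NC arrays. Then 1 member was lower with the mimic, 2 were higher with the antagomir and 4 higher between the NC arrays. Of all 13180 expressed genes 618, 612 and 671 were so in that order, and 800 were higher with the mimic. Without _x_ and _s_ probe sets, which leaves 22 members, the matrix median with the mimic was 0.43 and the integrin median between the NC arrays -0.45. Then 0 members were higher between the NC arrays and 0 past 2-fold in opposite directions. Of the 10155 genes left, 446 were higher between the NC arrays and 620 higher with the mimic. Median centring gave a matrix median of -0.20 with the antagomir, beside -0.07 over all expressed genes. The offset left 1 member lower with the mimic, against 388 of all 13180 expressed genes. Without a filter 1 member was higher and 2 were lower with the antagomir, against 2226 and 2412 of 19775 genes. With the NC antagomir array as control, the integrin median with the mimic was 0.74. There 0 members were lower, against 426 of all 13180 expressed genes.

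Single members turned sign where probe sets disagree. COL11A2 had 1.68 by the median over probe sets, 4.39 by its other probe set and 1.06 against the NC antagomir array with the mimic, and 0.57 and 3.24 between the NC arrays. By the median over probe sets COL6A2 had 0.62 between the NC arrays and COL13A1 0.85 with the mimic. Without _s_ probe sets NID1 had -0.37 with the mimic, 0.38 with the antagomir and -1.77 between the NC arrays, from probe sets under the floor, and -0.67 for the mimic against the NC antagomir array. FBN1, whose brighter probe sets are _s_ sets, had 0.50 with the mimic from the one left. The cause of these changes was not tested beyond the probe sets, samples and genes each alternative leaves in. No paired analysis was possible because each group has 1 array. Signals near the floor limit NID1, COL13A1, COL6A2, FN1 and SPARC.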
